A study of Mus musculus with 13 samples.

Results

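This account describes 37 genes of protein folding in the endoplasmic reticulum (ER) and of the unfolded protein response, measured in resting mouse skin around the clock. They were taken from a list of gene names, with the single-gene probe set of highest mean intensity for each gene, and all 37 were measured and bright enough to be tested, of 14953 genes tested in all. The list holds 15 chaperones and folding enzymes, 3 genes of protein translocation into the ER, 9 of ER-associated degradation, 3 of the IRE1, XBP1 and ATF6 arms, and 7 of the PERK-ATF4 branch.

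Secreted and membrane proteins enter the ER unfolded, where chaperones such as BiP, disulfide isomerases and lectins fold them, and where proteins that fail are sent back to the cytosol for degradation. When unfolded proteins build up, the sensors IRE1, ATF6 and PERK signal to the nucleus. ATF6 and spliced XBP1 raise chaperone and degradation genes, whereas PERK slows translation and raises ATF4, which drives genes of amino acid supply and stress. Skin secretes much protein, above all the collagens of the dermis, and epidermal cells carry many adhesion proteins on their membranes.

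Whole back skin of male C57Bl6 mice at postnatal day 46, in the resting (telogen) phase of the hair cycle, was collected every 4 h for 48 h. Lights were on for 12 h and off for 12 h, ZT hours count from lights on, and each of 13 Affymetrix whole-transcript arrays held equal RNA from a pool of 3 mice. The dark groups were ZT14, ZT18 and ZT22 (2 arrays each), and the light groups were ZT2 (3 arrays), ZT6 and ZT10 (2 arrays each). All groups shared strain, sex, age and diet, and arrays of the same time of day were separate pools from successive days. Values are linear probe set intensities, and the number of arrays limits their precision.

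Summed intensities of keratinocyte markers ran from 72870 to 80580 and those of dermal fibroblast markers from 55910 to 78680, a range of 1.11-fold and 1.41-fold. Of 7 measured plasma cell markers, a cell type rich in ER, 3 (Jchain, Tnfrsf17 and Pou2af1) were too dim to be tested, and limma called 0 of the other 4 in the 24 h test described below, with 1 at an unadjusted p under 0.05. Some pools stood apart. Hair shaft and inner root sheath markers summed to 39090 in the second ZT22 array and to between 3259 and 5695 in the other arrays. Telogen follicles make no new shaft. Liver markers ranged over 7.59-fold with the highest sum in the first ZT10 array, and pancreas markers over 2.77-fold with the highest in the first ZT2 array. Of 10 clock genes used to check the time labels, all 10 passed the same test.

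RefSeq promoters (build GRCm38.p6, 250 bases before to 50 after the annotated start) were found for 32 of the 37 genes. Hyou1, Manf, Sec61a1, Derl1 and Atf6 had no entry and are named only. The ER stress element is a DNA motif bound by ATF6 together with the general factor NF-Y, spelled here as CCAAT, any 9 bases and then CCACG, on either strand. It was present in 9 of the 32 promoters and in 17 of 11796 tested genes with a promoter (0.144%). The Hspa5 promoter is shown whole because Hspa5 is the main chaperone of the list, with the element in capitals, at chr2:34771840-34772139 on the plus strand.
Hspa5: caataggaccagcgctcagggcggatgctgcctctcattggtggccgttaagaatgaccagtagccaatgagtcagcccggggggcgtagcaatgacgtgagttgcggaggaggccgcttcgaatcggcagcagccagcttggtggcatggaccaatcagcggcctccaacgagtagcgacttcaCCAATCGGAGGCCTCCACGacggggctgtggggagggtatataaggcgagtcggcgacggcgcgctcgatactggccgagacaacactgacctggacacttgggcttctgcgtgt
The element of Hspa5 lay from base -65 to base -47, counted from the start. The same promoter held TGACGTG, the unfolded protein response element in its short form, from base -157 to base -151. That motif was held by 2.99% of tested genes with a promoter.

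The elements of the other 8 genes are shown with 8 bases on each side, since they are the motif that these genes share. The first 4 lines belong to genes with a 24 h rhythm described below, and Hsp90b1 had 2 elements.
Pdia6: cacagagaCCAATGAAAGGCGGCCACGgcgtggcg
Calr: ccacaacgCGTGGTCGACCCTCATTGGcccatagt
Hsp90b1 far: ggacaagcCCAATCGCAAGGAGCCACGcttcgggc
Hsp90b1 near: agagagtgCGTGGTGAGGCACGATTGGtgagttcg
Creld2: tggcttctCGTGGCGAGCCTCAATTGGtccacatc
Dnajc3: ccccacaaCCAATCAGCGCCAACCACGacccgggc
Canx: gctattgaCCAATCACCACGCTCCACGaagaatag
Syvn1: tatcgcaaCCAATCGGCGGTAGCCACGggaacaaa
Derl3: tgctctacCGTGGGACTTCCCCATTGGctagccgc
Capitals mark the element, which is reversed in Calr, Creld2, Derl3 and the nearer copy of Hsp90b1. These windows lie at chr12:17266483-17266517 (plus strand) for Pdia6, chr8:84847067-84847101 (minus) for Calr, chr10:86705630-86705664 and chr10:86705525-86705559 (minus) for Hsp90b1, chr15:88819512-88819546 (plus) for Creld2 and chr14:118937819-118937853 (plus) for Dnajc3. For Canx, Syvn1 and Derl3 they lie at chr11:50325792-50325826 (minus), chr19:6046524-6046558 (plus) and chr10:75893234-75893268 (plus). The distances from the start appear in the plot of motif positions. A match describes these letters only, and binding was not measured.

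**Figure D1:**
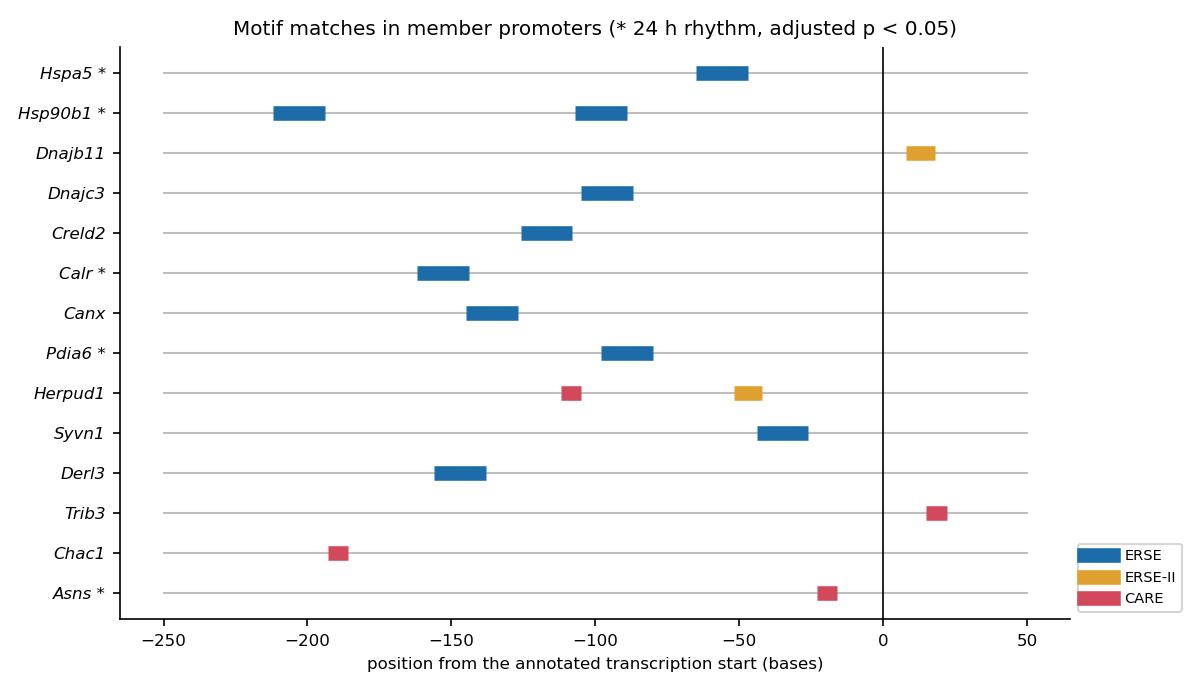
Position of each motif match (coloured bars, bases from the annotated start at 0) in the 14 promoters of the list that hold an ER stress element (ERSE), its shorter form (ERSE-II) or an amino acid response element (CARE), 1 line per gene. An ERSE lies upstream of the start in all 9 genes that hold it, and the PERK-ATF4 genes at the bottom hold CARE matches and no ERSE.

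The main question was which of these transcripts follow time of day. Of the chaperones and folding enzymes, 7 of 15 had a 24 h rhythm, all highest late in the dark phase, with peak-to-trough folds of 1.36 to 1.91. Asns, a target of ATF4 that encodes asparagine synthetase, was the only gene called outside that group, so that 8 of the 37 were called. No gene of translocation, ER-associated degradation or the IRE1, XBP1 and ATF6 arms was called. A gene was called where a 24 h cosine curve passed limma's F test at an adjusted p of 0.05 (Benjamini-Hochberg over all tested genes). The background was 2.13% of all tested genes called, and 0.863% called with a peak in the dark, where all 8 members peaked. Their fitted peaks lay between 20.4 and 22.6 h after lights on. Of 8 tested keratinocyte markers 1 was called, and it peaked in the same hours: Ivl (involucrin, a protein of the cornified envelope) at 21.5 h (fold 1.6, adjusted p 0.00488). The other tested keratinocyte markers were not called. Of the 8, Ivl included, 4 had a fitted peak between 18 and 2 h, as did 26.8% of all tested genes. The only called markers of other cell types were Cidec of adipocytes, with a peak at 11.9 h, and Mlana of melanocytes, at 13.5 h. The part of keratinocytes in the result was not tested.

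At an unadjusted p under 0.05 there were 17 of the 37 members (45.9%) and 18.6% of all genes. The median peak-to-trough difference was 0.24 in log2 over the 37 members, and 0.19 over all tested genes. It was 0.52 for the chaperones and folding enzymes, 0.27 for the PERK-ATF4 branch, 0.18 for ER-associated degradation, 0.14 for translocation and 0.04 for the IRE1, XBP1 and ATF6 genes. The count of 8 rested on the arrays used: it was 4 without either ZT14 array, 5 without the first ZT6, the first ZT10 or the second ZT2 array, and 9 without the second ZT22 array, the pool high in hair shaft transcripts. Calls over all tested genes moved the same way, from 318 to 128 and 131 without the first and second ZT14 array. They were 193, 133 and 195 without the first ZT6, first ZT10 and second ZT2 array, and 393 without the second ZT22 array. Hspa5, Hyou1, Sdf2l1 and Pdia6 were called in all 26 alternatives fitted with a 24 h curve, Calr in 23, Asns in 18, Pdia4 in 12 and Hsp90b1 in 9. In a one-way F test over the 6 times of day, which assumes no curve, limma called 0 members and 0.294% of all genes, with 13 members at an unadjusted p under 0.05 and a smallest adjusted p of 0.0535, for Hyou1.

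**Figure D2:**
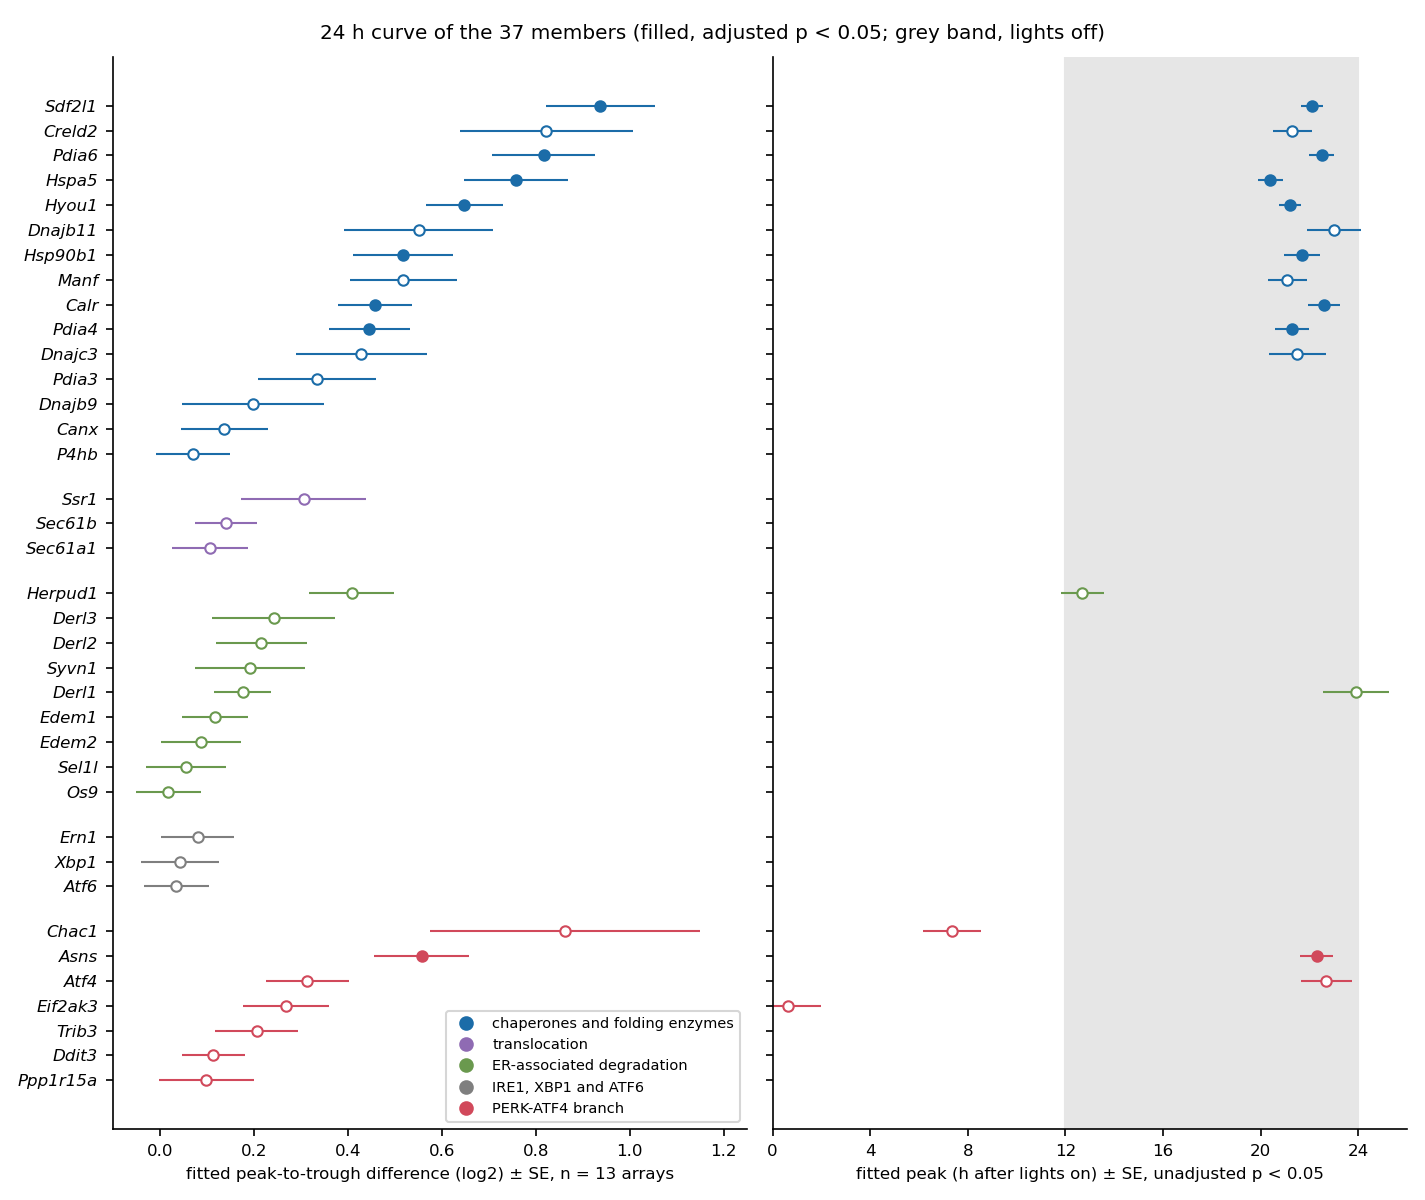
Left, fitted peak-to-trough difference of each of the 37 genes (log2, points, with SE as bars, n = 13 arrays), coloured by role and filled where the adjusted p passed 0.05. Right, fitted peak in hours after lights on with its SE, for the 17 genes with an unadjusted p under 0.05. The 8 filled points lie between 20.4 and 22.6 h, in the grey dark phase.

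Hspa5 (probe set 10471586) encodes BiP, the Hsp70 chaperone of the ER, which binds nascent chains and holds the stress sensors inactive. At ZT2, ZT6, ZT10, ZT14, ZT18 and ZT22 its intensity was 3968, 2994, 3287, 4306, 5144 and 5881 on the first day and 3800, 3275, 3061, 3721, 4264 and 4710 on the second, and it was 4633 at ZT2 of the third. On both days the lowest arrays were at ZT6 and ZT10 and the highest at ZT22. The curve spanned 1.69-fold from trough to peak (log2 0.76 ± 0.11, SE, n = 13 arrays), with its peak at 20.4 ± 0.52 h and an adjusted p of 0.00712 (limma). In whole skin, fewer cells of a type and less RNA per cell cannot be told apart.

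Sdf2l1 encodes an ER protein that works with BiP and its J-domain partners. In the same order its intensity was 1522, 968.4, 880.1, 1043, 1627 and 1631 on the first day, 1289, 1003, 774.4, 848.5, 1274 and 1363 on the second, and 1414 at the last ZT2. All 7 arrays of ZT18, ZT22 and ZT2 lay at or above 1274 and all 6 arrays of ZT6, ZT10 and ZT14 at or below 1043. It had the largest fold of the called genes, 1.91 (log2 0.94 ± 0.12, SE, n = 13 arrays), with a peak at 22.1 ± 0.46 h and an adjusted p of 0.0024 (limma).

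Pdia6, a disulfide isomerase that also acts on the sensor IRE1, read 1514, 1051, 908.4, 1009, 1465 and 1964 on the first day, 1396, 1132, 979.7, 959.7, 1337 and 1321 on the second, and 1445 at the last ZT2. Its ZT18, ZT22 and ZT2 arrays again lay above all arrays of the other times, and the first ZT22 array stood highest. The fold was 1.76 (log2 0.82 ± 0.11, SE, n = 13 arrays), the peak 22.5 ± 0.50 h and the adjusted p 0.00403 (limma).

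Hyou1 encodes a large ER chaperone that helps BiP exchange its nucleotide. Its intensity was 1224, 950.8, 926.8, 1091, 1390 and 1340 on the first day, 1227, 954.7, 833, 1076, 1295 and 1296 on the second, and 1380 at the last ZT2. The arrays of ZT18, ZT22 and ZT2 did not overlap those of ZT6, ZT10 and ZT14. Its fold was 1.57 (log2 0.65 ± 0.08, SE, n = 13 arrays), with a peak at 21.2 ± 0.46 h and an adjusted p of 0.00267 (limma).

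Calr encodes calreticulin, a lectin chaperone that binds calcium. It read 7101, 5896, 6129, 5835, 7498 and 8372 on the first day, 7204, 6196, 5925, 5508, 6863 and 7296 on the second, and 7581 at the last ZT2. The arrays of ZT18, ZT22 and ZT2 read at least 6863 and the rest at most 6196, although the fold was only 1.37 (log2 0.46 ± 0.08, SE, n = 13 arrays). Its peak was 22.6 ± 0.65 h and its adjusted p 0.0209 (limma), which became 0.0611 with the first ZT14 array left out, 0.0555 with the second left out and 0.0644 with both ZT22 arrays left out.

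Pdia4, a disulfide isomerase of the same family as Pdia6, read 2834, 2388, 2246, 2469, 3292 and 3224 on the first day, 2641, 2659, 2168, 2597, 2888 and 2781 on the second, and 2991 at the last ZT2. The second ZT6 and second ZT2 arrays, at 2659 and 2641, made the windows overlap. The fold was 1.36 (log2 0.45 ± 0.09, SE, n = 13 arrays), the peak 21.3 h and the adjusted p 0.037 (limma). That p was 0.0748 with the first ZT22 array left out, and it reached 0.129 with the first ZT10 array left out. With day as a replicate block, a fit without the last ZT2 array, it was 0.066, and 0.0599 with that array left out alone. Pdia4 had a further probe set, and with the mean of both the difference was 0.30 in log2 and the adjusted p 0.066.

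Hsp90b1 encodes GRP94, the Hsp90 chaperone of the ER. It read 3778, 2915, 3114, 3320, 4095 and 4693 on the first day, 3469, 3212, 2614, 3254, 3232 and 3794 on the second, and 3897 at the last ZT2. The second ZT18 array, at 3232, fell among the arrays of ZT6 to ZT14, so the windows overlapped. The fold was 1.43 (log2 0.52 ± 0.11, SE, n = 13 arrays), the peak 21.7 h and the adjusted p 0.0476 (limma). It was 0.0507 with day as a replicate block, a fit without the last ZT2 array, and 0.0766 with that array left out alone. The highest adjusted p over the alternatives was 0.136, without the second ZT10 array.

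**Figure D3:**
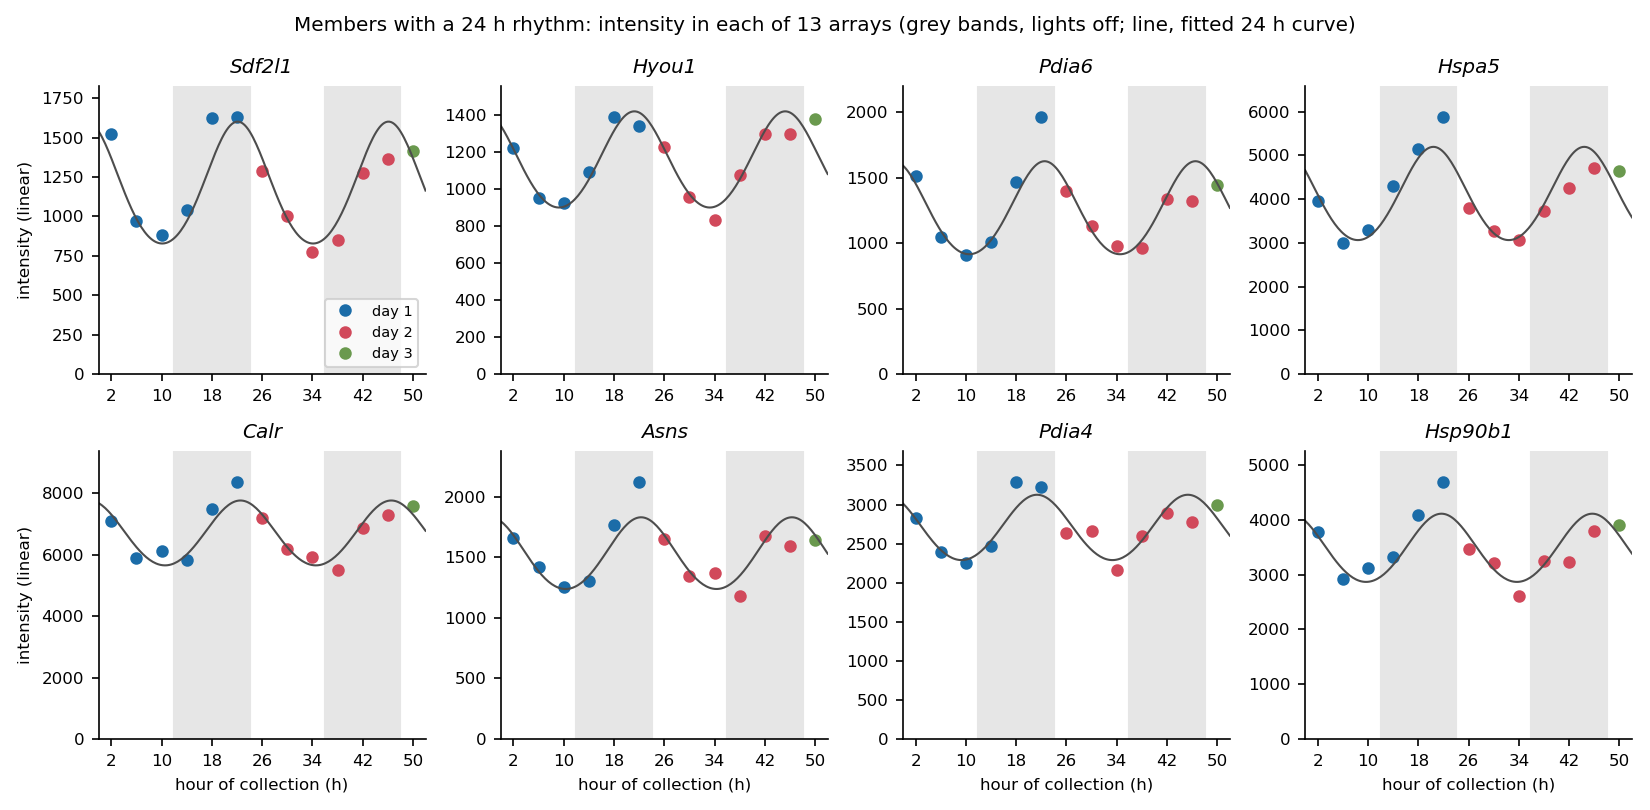
Intensity (linear) of the 8 called genes against hour of collection, 1 point per array, coloured by day, with the fitted 24 h curve as a line and lights-off hours in grey. The curves are low between hours 6 and 14 and between 30 and 38 and peak at night, and the first ZT22 array (hour 22) is the highest point for Hspa5, Sdf2l1, Pdia6, Calr, Asns and Hsp90b1.

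The other 8 chaperones and folding enzymes did not pass. Creld2, which encodes an ER-stress-induced disulfide isomerase-like protein, had a fitted fold of 1.77 (log2 0.82 ± 0.18, SE) and an adjusted p of 0.0718 (limma). Its second ZT22 array read 1149 and its first 2076, and its adjusted p was 0.0945 without the first, 0.0395 without the second and 0.178 without the first ZT10 array. It was called in 4 of 26 alternatives. Manf, a secreted ER protein that binds BiP, missed the threshold with a fitted fold of 1.43 (limma, adjusted p 0.067), and was also called in 4 of 26 alternatives. Its adjusted p was 0.0251 with day as a replicate block, a fit without the last ZT2 array, and 0.0869 without that array alone. It was 0.116 without the first ZT22 array and at most 0.156, without both ZT22 arrays. Among the chaperones, values just outside the threshold were thus those of Manf and Creld2, and just inside it those of Hsp90b1 (0.0476) and Pdia4 (0.037). Herpud1 of ER-associated degradation, described below, was also just outside it (limma, adjusted p 0.0672), with a fitted peak at 12.7 h.

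Dnajb11 and Dnajc3, J-domain partners of BiP, had fitted folds of 1.47 and 1.35, fitted peaks at 23 and 21.5 h and adjusted p-values of 0.171 and 0.221 (limma). Dnajb11 read 1096 in the first ZT22 array and between 503.8 and 776.7 in all others. Pdia3, the isomerase that works with the lectin chaperones, spanned 1.26-fold in the fit (adjusted p 0.281). Canx, P4hb and Dnajb9 had the smallest fitted folds of this group. Canx, which encodes the membrane-bound partner of calreticulin, had a fitted fold of 1.1 and P4hb, which encodes protein disulfide isomerase itself and a subunit of the collagen prolyl hydroxylase, one of 1.05. Dnajb9, a further J-domain gene, had a fitted fold of 1.15 and a fitted peak at 11.6 ± 2.96 h. Their adjusted p-values were 0.571, 0.799 and 0.63 (limma).

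For translocation, Sec61a1 and Sec61b encode subunits of the channel through which nascent chains enter the ER, and Ssr1 a subunit of the complex beside it. Limma called 0 of the 3, with 0 at an unadjusted p under 0.05, and the fitted folds were 1.08, 1.1 and 1.24. Sec61b kept within 531.5 and 618.1 over all 13 arrays. Ssr1 was lowest in both ZT14 arrays, at 3127 and 3048, against 3650 to 5312 elsewhere. Its curve differed from that of Hspa5 in the test of relative curves described below (adjusted p 0.00161, limma), as did those of 97.7% of all tested genes.

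In ER-associated degradation, limma called 0 of 9 genes, and Herpud1 and Derl1 had an unadjusted p under 0.05. Herpud1, a membrane protein that gathers the degradation machinery, read 2844, 2904, 3885, 3504, 2738 and 3071 on the first day, 2637, 2889, 3392, 3532, 3255 and 2921 on the second, and 2488 at the last ZT2. It was highest at ZT10 and ZT14, when Sdf2l1 and Pdia6 were low. Its fitted fold was 1.33 (log2 0.41 ± 0.09, SE, n = 13 arrays), its fitted peak 12.7 ± 0.89 h and its adjusted p 0.0672 (limma), which became 0.0471 with the first ZT22 array left out and 0.169 with the first ZT14 array left out. Derl1, a channel protein of the pathway, had a fitted fold of 1.13, a fitted peak at 23.9 h and an adjusted p of 0.25.

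The remaining degradation genes had fitted folds of 1.01 to 1.18 and adjusted p-values of at least 0.362 (limma). These are the ubiquitin ligase Syvn1 and its adaptor Sel1l, the mannose-trimming Edem1 and Edem2, the lectin Os9, and Derl2 and Derl3. Os9 had the smallest fitted fold of the 37, with intensities of 1889 to 2205. Derl3, at 265.7 to 417.9, had a fitted peak at 15.2 ± 2.19 h. The fitted peaks of Sel1l and Os9 had SEs of 5.43 and 15.1 h and carry no time.

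The sensors and their factor had the smallest median curve of the 5 roles. Xbp1, which encodes the factor that IRE1 activates by splicing, read 4966, 5244, 5205, 4658, 5884 and 5207 on the first day, 5069, 5542, 5159, 4940, 5177 and 5432 on the second, and 4864 at the last ZT2. The highest and the lowest arrays, ZT18 and ZT14 of the first day, were neighbours in time. Its fitted fold was 1.03 (log2 0.04 ± 0.08, SE, n = 13 arrays) with an adjusted p of 0.923 (limma), and Ern1 (IRE1) and Atf6 had fitted folds of 1.06 and 1.02 with adjusted p-values of 0.736 and 0.928. Limma called 0 of the 3, with 0 at an unadjusted p under 0.05. A probe set over the gene gives total Xbp1 RNA and not its splicing, and activation of the 3 sensors was not measured.

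The PERK-ATF4 branch had 1 of 7 genes called and 4 at an unadjusted p under 0.05. Asns read 1655, 1416, 1258, 1306, 1766 and 2123 on the first day, 1649, 1349, 1371, 1179, 1674 and 1595 on the second, and 1642 at the last ZT2. All arrays of ZT18, ZT22 and ZT2 lay above all those of ZT6, ZT10 and ZT14. The fold was 1.47 (log2 0.56 ± 0.10, SE, n = 13 arrays), the peak 22.3 ± 0.68 h and the adjusted p 0.0274 (limma). That p was 0.0503 without the first ZT22 array and at most 0.0888 over its alternatives.

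Atf4, the transcription factor of the branch, read 1959, 1623, 1380, 1722, 1862 and 1958 on the first day, 1862, 1618, 1511, 1614, 1543 and 1737 on the second, and 1733 at the last ZT2. It was lowest at ZT10 on both days, yet its second ZT18 array, at 1543, was also low. The fitted fold was 1.24 (log2 0.31 ± 0.09, SE, n = 13 arrays), with a fitted peak at 22.7 h and an adjusted p of 0.158 (limma). ATF4 is known to be controlled by translation as well as by RNA level, and protein was not measured.

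Eif2ak3, which encodes PERK, read 855.1, 884, 791.9, 807.4, 913 and 1114 on the first day, 1036, 997.3, 872, 816.4, 823.7 and 914.1 on the second, and 939.6 at the last ZT2. It was lowest at ZT10 and ZT14 on the first day and at ZT14 and ZT18 on the second. Its fitted fold was 1.2 and its adjusted p 0.242 (limma), with a fitted peak at 0.63 ± 1.37 h.

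Chac1, an ATF4 target that breaks down glutathione, ran differently. It read 440.6, 822.2, 833.3, 484.3, 433.8 and 348.1 on the first day, 555.9, 1101, 831, 530.4, 624.2 and 817.7 on the second, and 794.5 at the last ZT2. Its 4 highest arrays were those of ZT6 and ZT10, but ZT22 and ZT2 differed between days: 817.7 on the second day against 348.1 on the first at ZT22, and 794.5 at the last ZT2 against 440.6 at the first. The fitted fold was 1.82 (log2 0.86 ± 0.29, SE, n = 13 arrays), with a fitted peak at 7.37 ± 1.19 h and an adjusted p of 0.232 (limma), and it was called in 1 of 26 alternatives. That was without both the first ZT2 and the second ZT22 array, an omission chosen after seeing the data (0.0427), and the highest adjusted p was 0.407, without the second ZT6 array.

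The other members of the branch had smaller fitted curves. Trib3, a pseudokinase that restrains ATF4, read 655.5, 755.8, 841.6, 803.6, 810.7 and 701.2 on the first day, 728, 756, 835.3, 773.2, 906.1 and 882 on the second, and 754.6 at the last ZT2. Ddit3, which encodes the factor CHOP, read 363.3, 374.2, 387.3, 418.8, 353.6 and 407.9 on the first day, 387, 388.9, 398.6, 426.2, 402.4 and 385.9 on the second, and 363 at the last ZT2. Ppp1r15a, which encodes GADD34, the phosphatase subunit that restores translation, read 537.8, 492.8, 455.5, 508.5, 411.3 and 431 on the first day, 533.9, 470.4, 479.2, 552.7, 476.7 and 478.3 on the second, and 496.4 at the last ZT2. Trib3 was lowest in the ZT2 arrays and the first ZT22 array, and Ddit3 was highest at ZT14 on both days. Their fitted folds were 1.15, 1.08 and 1.07 for Trib3, Ddit3 and Ppp1r15a, with adjusted p-values of 0.34, 0.5 and 0.76 (limma).

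**Figure D4:**
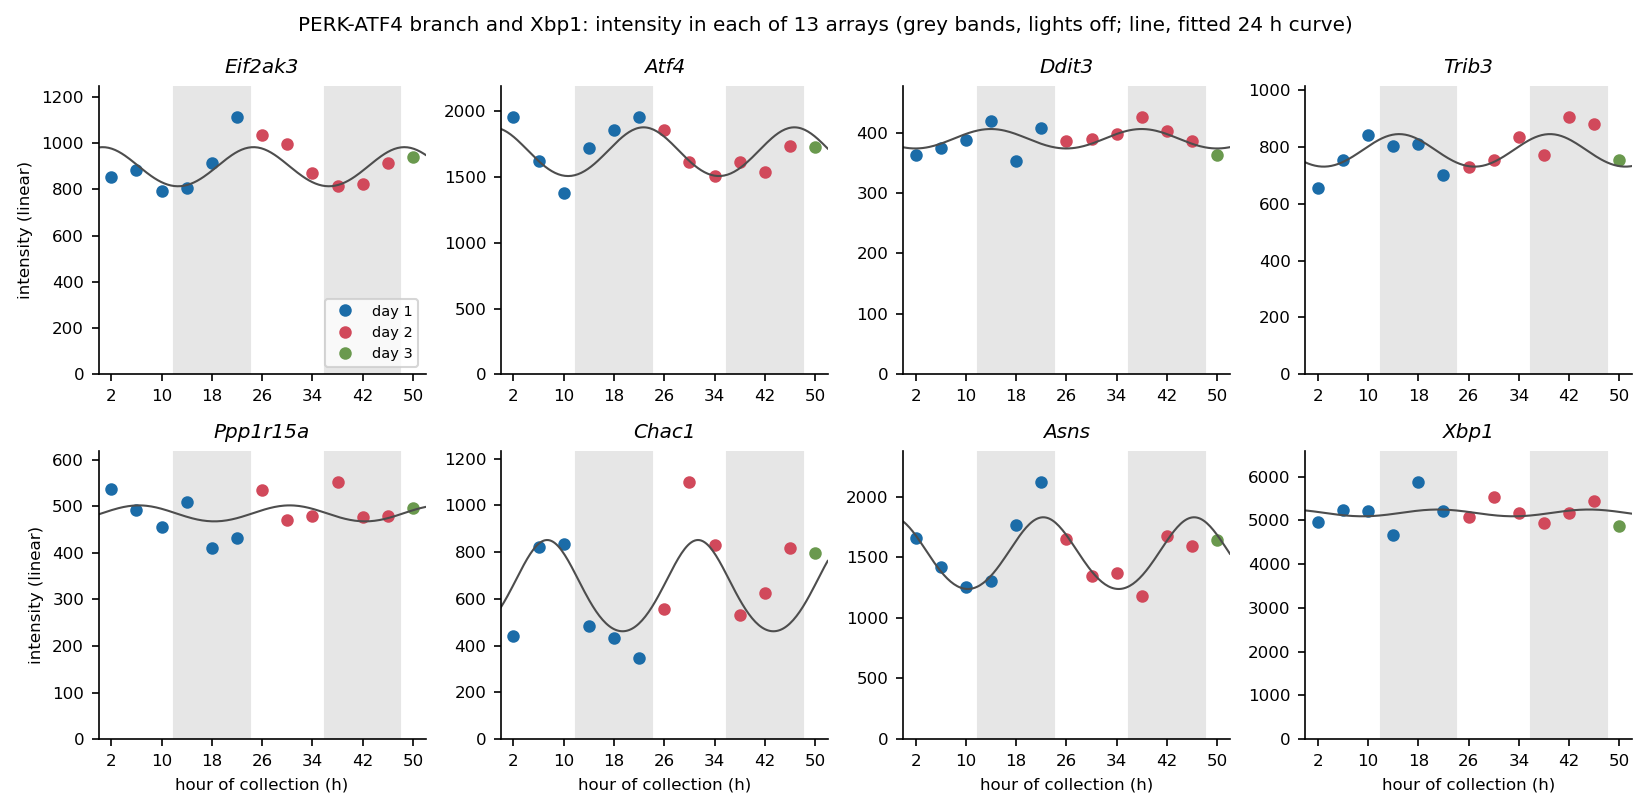
Intensity (linear) of the 7 genes of the PERK-ATF4 branch and of Xbp1 against hour of collection, 1 point per array, coloured by day, with the fitted 24 h curve as a line and lights-off hours in grey. Asns is high at hours 18 to 26 and 42 to 50, Chac1 is high at hours 6, 10, 30 and 34, and Ddit3, Ppp1r15a and Xbp1 stay near level.

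The promoters of this branch held another motif. The amino acid response element, where ATF4 binds, was spelled as TGATG, any base and then AA, on either strand. Of tested genes with a promoter, 2.93% held it. It was present in 3 of the 7 promoters of the branch and in Herpud1, shown with 8 bases on each side and the element in capitals.
Asns: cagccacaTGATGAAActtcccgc
Chac1: ccctgccgTTGCATCActcctgcc
Trib3: gctcaggtTTACATCAgccgggcg
Herpud1: acggcgggTTGCATCAgcccgcac
The windows lie at chr6:7693217-7693240 (minus strand) for Asns, chr2:119351041-119351064 (plus) for Chac1, chr2:152344031-152344054 (minus) for Trib3 and chr8:94386309-94386332 (plus) for Herpud1. The element is reversed in Chac1, Trib3 and Herpud1. Asns and Chac1 thus share the motif while their fitted peaks were at 22.3 and 7.37 h. Herpud1 also held the shorter ER stress element, ATTGG, any base and then CCACG, as did Dnajb11. That motif was held by 0.0763% of tested genes with a promoter.
Herpud1 short element: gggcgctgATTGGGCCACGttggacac
Dnajb11 short element: cggcggcgATTGGCCCACGcctggctg
These lie at chr8:94386369-94386395 and chr16:22857844-22857870, both on the plus strand.

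Chaperones and the PERK-ATF4 branch were compared through the curve of each gene relative to Hspa5. The log2 level of Hspa5 was subtracted in each array and the 24 h curve of the difference was tested with limma. Of all tested genes, 97.7% differed from the Hspa5 curve, and 31 of the other 36 members did. The 7 genes of the PERK-ATF4 branch all differed, as nearly all genes do, and 9 of the other 14 chaperones and folding enzymes did. The 5 members not called were Hyou1, Manf, Creld2, Pdia4 and Dnajc3, in that order with adjusted p-values of 0.367, 0.146, 0.432, 0.0593 and 0.0517, among 2.29% of all tested genes not called. Missing the threshold does not show that their curves are the same: the peak-to-trough difference from Hspa5 was 0.19 ± 0.13 for Hyou1 and 0.34 ± 0.13 for Pdia4 in log2 (SE, n = 13 arrays).

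The median peak-to-trough difference from Hspa5 was 0.43 in log2 for the chaperones, 0.76 for the PERK-ATF4 branch and 0.81 for all tested genes. Within the branch, Asns was nearest to Hspa5, at 0.38 ± 0.14 (adjusted p 0.0435), then Atf4 at 0.53 ± 0.14 (0.0047), and Chac1 was farthest, at 1.61 ± 0.30 (0.000493). Several genes that did not pass the 24 h test did differ from Hspa5 in this test, as did 97.7% of all tested genes. A level gene takes the reversed Hspa5 curve once Hspa5 is subtracted, so such a call shows no rhythm of its own. These genes included P4hb (limma adjusted p 0.000365), Canx (0.000903), Dnajb9 (0.000206) and Xbp1 (0.00117). Herpud1 was also among them (0.000205), and its level relative to Hspa5 spanned 2-fold between peak, at 9.84 h, and trough. Over 26 alternatives the number of members that differed ranged from 26 to 34. The lowest count came from the fit against the mean of Hspa5, Hsp90b1, Pdia4 and Pdia6. Those genes were themselves left out of that test, so fewer members were tested there.

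**Figure D5:**
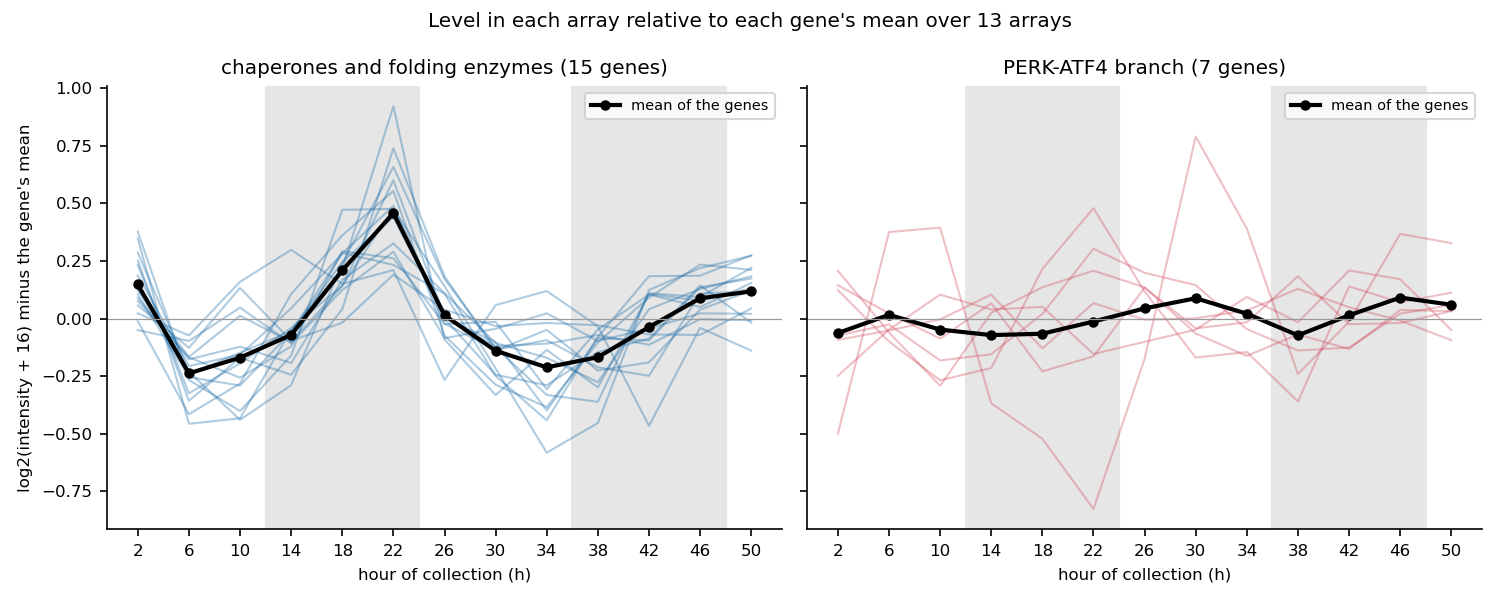
Level of each gene relative to its own mean (log2, thin lines) and the mean over genes (black line and points) in the 13 arrays by hour of collection, for the 15 chaperones and folding enzymes (left) and the 7 genes of the PERK-ATF4 branch (right), with lights-off hours in grey. The chaperone mean is 0.458 at hour 22 and 0.088 at hour 46, and lies below 0 at hours 6 to 14 and 30 to 42, whereas the PERK-ATF4 mean keeps within 0.1 of 0 although its genes diverge.

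Dark arrays as a whole were then compared with light arrays. Limma called 0 of the 37 members, against a background of 0.0201% of all tested genes, and 3 members (8.11%) had an unadjusted p under 0.05, as did 8.28% of all genes. They were Hspa5, with a difference of 0.39 ± 0.12 in log2 (SE, 6 dark and 7 light arrays, limma adjusted p 0.437), Manf, with 0.23 ± 0.11 (adjusted p 0.603), and Chac1, with -0.50 ± 0.21 (adjusted p 0.553). Hspa5 had 3721 to 5881 in the dark arrays and 2994 to 4633 in the light arrays, so the groups overlapped. The difference was above 0 for 14 of 15 chaperones and 4 of 7 PERK-ATF4 genes, and for 6007 of 14953 genes in all.

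The boundaries of dark and light did not coincide with those of the called curves. With windows chosen after the values were seen, all 7 arrays of ZT18, ZT22 and ZT2 lay above all 6 arrays of ZT6, ZT10 and ZT14 for Hyou1, Sdf2l1, Calr, Pdia6 and Asns. That held for 5 of 37 members and for 0.522% of all tested genes, and since the windows follow the curves it is a description. The fitted peak lay between 18 and 2 h for 27 of the 37 genes (73%), 14 of 15 chaperones and 26.8% of all tested genes. That count takes in genes that were not called, among them Os9 and Sel1l, whose fitted peaks carry no time. Of called genes, all 8 members had their peak in these hours, as did 131 of the 318 over all tested genes.

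Between days, no member differed at the threshold. For the second day minus the first, with time of day as a block, limma called 0 of the 37 members and 0% of all tested genes. At an unadjusted p under 0.05 there were 5 members (13.5%) and 6.53% of all genes. They were Manf and Sdf2l1, both at -0.21 ± 0.06 in log2 (SE, n = 12 arrays), Dnajb9 at -0.23 ± 0.09, Pdia3 at -0.18 ± 0.07 and Chac1 at 0.43 ± 0.14. Each had an adjusted p of 0.603 (limma). All 15 chaperones and folding enzymes had a difference below 0, with a median of -0.14. Over all tested genes the median was 0.01, and 7925 of 14953 genes had a difference above 0. The 15 genes were read in the same 12 arrays, so their shared sign is not 15 separate results.

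The offset was largest at ZT18 and ZT22. The mean over the 15 chaperones was lower on the second day by 0.37 at ZT22 and by 0.246 at ZT18, lower by 0.042 to 0.134 at ZT2, ZT10 and ZT14, and higher by 0.098 at ZT6. The first ZT22 array was the highest of the 13 for 12 of the 15 chaperones and for 19 of the 37 members, and also for 20.8% of all tested genes. Pancreas markers had their lowest sum in that array, 2340, and hair shaft markers stood at 3944 there. Liver markers summed to 19670 there and to 8967, their lowest, in the second ZT22 array, and they were not fitted as a covariate. A fit with pancreas markers as a covariate called 7 members in the 24 h test (260 of all tested genes), with Hsp90b1 lost. Hair shaft markers as a covariate gave 9 members (458 of all tested genes), with Creld2 gained. The part of these markers in the high values of the first ZT22 array was not tested. With the first ZT22 array left out, 6 members and 288 of all tested genes were called in the 24 h test. Hsp90b1, Pdia4 and Asns were lost and Herpud1 was gained. With both ZT22 arrays left out, 7 members and 292 of all tested genes were called.

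A different 24 h curve on the second day was called by limma for 0 members and 0% of all tested genes. At an unadjusted p under 0.05 were 4 members (10.8%), Dnajc3, Pdia6, Creld2 and Derl3, and 12.8% of all genes. A 12 h component, a period discussed for ER stress genes in liver, was also called for 0 members and 0% of all tested genes. There, 2 members (5.41%) had an unadjusted p under 0.05, Ssr1 and Ppp1r15a, beside 5.46% of all genes. With collections every 4 h, each 12 h cycle held 3 time points.

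The motif counts were set beside the calls as a description. Of the 7 called genes with a promoter, 4 held an ER stress element (Hspa5, Calr, Pdia6 and Hsp90b1), as did 5 of the 25 not called (Creld2, Dnajc3, Canx, Syvn1 and Derl3). By role it was present in 7 of 13 chaperone promoters, 2 of 8 of ER-associated degradation and 0 of 7 of the PERK-ATF4 branch. Canx, whose element is printed above, had a fitted fold of 1.1 against 1.69 for Hspa5. The clock E-box, CACGTG, was present in Calr, Dnajb9, Derl3 and Ssr1 and in 11% of tested genes with a promoter. Of the 4 members that held it, 1 was called. In genes that held several motifs, the matches did not overlap.

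Other genes of the same pathways, on lists that do not hold the 37, were called in 6 of 146 cases, where 2.13% of all tested genes were. None of 36 other ER folding enzymes, 22 other degradation genes or 14 other sensors and regulators was called by limma. In that order, 7, 1 and 2 of them had an unadjusted p under 0.05, beside 18.6% of all tested genes. Among other translocation and glycosylation genes 1 of 22 was called, Rpn1, a subunit of the oligosaccharyltransferase, which peaked at 23.5 h and spanned 1.4-fold. Of 19 genes of ER to Golgi transport 1 was called, the coat gene Sec13, which peaked at 0.94 h and spanned 1.39-fold. Their adjusted p-values were 0.0346 and 0.0452, and 3 of the 22 and 8 of the 19 had an unadjusted p under 0.05.

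Of 33 other ATF4 targets 4 were called, with peaks in the dark and in the light, and 15 had an unadjusted p under 0.05, beside 18.6% of all tested genes. Mthfd2, a mitochondrial enzyme of folate metabolism, had a fold of 2.04 with a peak at 22.9 h (adjusted p 0.00293, limma). Stc2, which encodes a secreted glycoprotein, had a fold of 1.75 with a peak at 10.2 h (0.00229), and Slc1a5, a glutamine transporter, one of 1.63 with a peak at 12.4 h (0.0271). The 4th, Gars, a glycyl-tRNA synthetase gene named after its values were seen, peaked at 1.17 h (0.0466). Mthfd2 thus peaked near the time of Asns and Stc2 about opposite.

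Heat shock genes of the cytosol and mitochondria, many of which answer to HSF1, were the nearest comparison. Of the 37 ER genes 8 were called, and of the 25 heat shock genes 4 were, all with a peak in the dark, as were 0.863% of all tested genes. At an unadjusted p under 0.05 were 17 of the 37 ER genes and 13 of the 25 heat shock genes, beside 18.6% of all tested genes. Hsp90aa1 peaked at 20.3 h with a fold of 1.67, Hsph1 at 19.6 h with 1.89 and Stip1, a co-chaperone of Hsp90, at 21.3 h with 1.42, with adjusted p-values of 0.0114, 0.0178 and 0.0181 (limma). The other was Fkbp4, a further co-chaperone of Hsp90, named after its values were seen (peak 20.8 h, adjusted p 0.0272). Relative to Hspa5, 5 of 36 ER genes and 7 of the 25 heat shock genes were not called as different, Hsp90aa1 (adjusted p 0.984) among them. Of all tested genes, 2.29% were not. A difference between the lists was not tested.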

How the data were processed

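The deposited files hold linear intensities, 1 column per array and 1 row per probe set, made with Affymetrix Expression Console 1.1.1 and PLIER 2.0 per the submitters' processing notes. Per the labels, RNA of 3 mice was pooled for each array. Neither the genome build nor the normalization between arrays is stated in these sources, and array medians ran from 353.8 to 392.8.

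The platform annotation gave exactly 1 gene to 21789 of 35557 probe sets, which made 19938 genes (highest mean where a gene had several). Intensities were taken as log2(intensity + 16), which understates the change of dim genes, and tests ran on the 14953 genes above the dimmest 25%. Fits used R 4.3.3 and limma 3.58.1 (lmFit and eBayes), with 10 residual degrees of freedom for the 24 h curve and Benjamini-Hochberg adjustment over all tested genes. A fold of a curve is its fitted peak over its trough, with SE by the delta method. Motifs were matched in RefSeq promoters with Python 3.11.15. The tests were tested on simulated data.

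Arrays sharing a time of day are separate pools collected a day apart and serve as replicates. Days are known from the labelled hours. First-day deviations from the time-of-day mean correlated between times of day above 0.1 in 6 of 15 pairs (-0.658 to 0.528). Day entered as a block in an alternative, without the last ZT2 array. Array scan dates were not used.

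The members and lists were chosen with earlier results of these data known. All 37 members are named, with values in every array for called members, Xbp1 and the PERK-ATF4 branch. Of each other pathway list and of the heat shock list, up to 3 called genes with the smallest p are named. Marker and clock lists served as checks, and Ivl, Cidec and Mlana were named after their values were seen. Values in every array of Herpud1 were added after they were seen.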

Additional observations from a re-analysis of the deposited data

Results flagged for a closer look

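In 4 of 74 groups of dark or light arrays examined, 1 array lay apart from the rest by Dixon's test, where chance gives about 1 flag in 20 groups. In the first ZT22 array, Dnajb11 was 1096 where the nearest dark array had 669.1, Dnajc3 was 2732 where the nearest had 1983, and P4hb was 4340 where the nearest had 3752. These 3 values come from the array that was highest for most chaperones. In the first ZT2 array, which had the highest pancreas marker sum, Os9 was 1893 where the nearest light array had 2039. Causes were not tested.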

How the results depend on the processing

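Brackets here give the genes called among all genes of the same fit. The number of members with a 24 h rhythm, 8 (318), ranged from 4 to 9 when each array was left out in turn. It was lowest without either ZT14 array (128 and 131). It was 5 (165) when the level of dim probes, taken as the median olfactory receptor gene, entered as a covariate. In the one-way F test over 6 times of day, which spends more degrees of freedom on time, it was 0 (44). It was 11 (407) after quantile normalization and 6 (227) without the filter on dim genes. As covariates, hair shaft markers gave 9 (458) and pancreas markers 7 (260). With day as a replicate block, a fit without the last ZT2 array, it was 7 (212). Hsp90b1 and Pdia4 were lost and Manf was gained against the main fit. Leaving out the last ZT2 array alone gave 6 (203) and also lost Hsp90b1 and Pdia4, so these losses were not particular to the block. The fit with the block changed no other call among the members named in the 24 h test or in dark minus light. Leaving out both ZT22 arrays, or the first ZT2 and second ZT22 arrays, was chosen after seeing the data and gave 7 (292) and 9 (430). The counts for dark minus light, day, the curve between days and the 12 h component were 0 under all alternatives run, day without the time-of-day block included. For the curve relative to Hspa5 the count of 31 ranged from 28 to 34 without 1 array and from 26 to 32 otherwise. The 26 came from the fit against the mean of Hspa5, Hsp90b1, Pdia4 and Pdia6, which tested fewer members. No result reversed. Pools of 3 mice at 4 h spacing, with 2 or 3 arrays a time, limit what shallow curves can show.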

Other observations

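The ER stress element also occurred in 8 tested genes outside the list of 37, and limma called 0 of them in the 24 h test. One was Ero1b, an ER oxidase that supplies disulfide bonds, with a fitted peak-to-trough difference of 0.28 in log2 and an adjusted p of 0.325. Another was Alg12, a mannosyltransferase of N-glycan assembly, with 0.09 and an adjusted p of 0.843. The other 6 were Acacb, Adcy3, Pan2, Spats2l, Tdrd9 and Zfp57, with differences of 0.02 to 0.23. Of all 17 tested genes with the element, 4 were called (23.5%), each of them a chaperone or folding enzyme of the list, while 2.05% of all tested genes with a promoter were called. These genes were named after their values were seen.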
